A study of Mus musculus with 6 samples.

Results

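The genes of the TGF-beta and BMP pathway were followed in 4T1 cells, a mouse mammary carcinoma line, carrying pLVX either empty (control) or with the human long noncoding RNA LINC01133. The set holds 52 genes, chosen by symbol from a fixed list of ligands, receptors, Smads, inhibitors and targets, of 31854 rows in the count table. For 50 of them there was a row; Fstl3 and Id4 had none under those symbols and are not analysed here. Of the 50, 45 passed the filter on low counts and were tested, and Bmp2, Bmp6, Bmp7, Bmp8a and Inhbb did not. Total RNA was sequenced from 3 control libraries, labelled WT, and 3 LINC01133 libraries, labelled as overexpressing it, all from cells grown in DMEM with 10% serum. pLVX is a lentiviral vector, and the labels do not say whether either group is 1 clone or a pool, or whether both came from the same parental cells. An effect of LINC01133 and other differences between the cell populations cannot be told apart here, and "rose" and "fell" compare the groups only. The level of LINC01133 itself was not analysed here.

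Ligands of this family are secreted dimers that bring together type II and type I receptors, both serine/threonine kinases, and the type I receptor then phosphorylates a receptor Smad. TGF-beta and activin receptors act mainly on Smad2 and Smad3, BMP receptors on Smad1, Smad5 and Smad9, and both kinds enter the nucleus with Smad4. The pathway is controlled by latent complexes that hold TGF-beta in the matrix, by secreted antagonists that trap BMPs and activins, and by inhibitory Smads that its own signal induces. In mammary carcinoma it is known both for growth arrest and for epithelial to mesenchymal change.

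The libraries held 25521469 to 33877549 counts, and 3 counts in a library corresponded to 0.0827 to 0.128 CPM (a gene's counts relative to the library size, here scaled by edgeR's TMM factors). The 50 genes took 0.314% to 0.324% of control counts and 0.366% to 0.374% of LINC01133 counts. Rows with at least 10 counts numbered 12404 to 12464 in a control library and 14078 to 14491 in a LINC01133 library. Defining epithelial markers were close to absent: Epcam had 0 counts in the controls and 78 over the 3 LINC01133 libraries, and Cdh1 (E-cadherin) had 4 and 138, whereas Krt8 stood at 145.3 ± 3.82 and 217 ± 3.03 CPM (SD, n = 3). Of 10 epithelial markers 4 stayed under 1 CPM in both group means, and whether the cells are the line named in the labels was not checked here.

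The largest changes were losses: a BMP ligand, a BMP antagonist and a TGF-beta co-receptor fell to a small remainder of their control level. Bmp4, a BMP ligand, fell from 56.9 ± 1.18 to 0.462 ± 0.201 CPM, and the BMP antagonist gene Grem1 (gremlin) from 3272 counts to 3. Tgfbr3, the co-receptor betaglycan, fell from 252.8 ± 4.20 to 3.42 ± 0.206 CPM. Pmepa1, a TGF-beta induced inhibitor of the same pathway, rose from 6.92 ± 0.187 to 67.3 ± 3.76 CPM, and the ligand gene Tgfb3 from 9.35 ± 0.998 to 29.4 ± 1.90 CPM (SD, n = 3 throughout). In bulk RNA, fewer cells with a transcript and less of it per cell cannot be told apart.

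By edgeR's quasi-likelihood test at an adjusted p under 0.05 over all 14116 genes tested, 23 of the 45 tested genes were higher and 21 lower with LINC01133, and 1, Tgfb2, was not called. Most genes differed between these groups: 84.9% of all tested genes were called, 44.5% higher and 40.5% lower, and the values of the groups did not overlap in 85% of them, against 44 of the 45 here. The called count is thus not a result about this pathway. At least 2-fold changes were called in 18 of the 45, where 34.1% of all tested genes had one: 10 were higher and 8 lower, against 20.3% and 13.9%. The median log2 fold change was 0.14 and the mean -0.32, of opposite sign, with a median of 0.05 over all tested genes; the median size was 0.76 against 0.63. At a mean of 5 CPM or more in either group there were 37 genes, of which 6 were at least 2-fold higher and 5 at least 2-fold lower, where 10.5% and 13.7% of all such genes were. Scaling by library size alone shifted log2 fold changes by a median of 0.24 and the split of calls to 65% higher from 52.4%. Under it the values of Smad4 (0.17), Bmpr2 (0.18), Tgif1 (0.06) and Tgfb2 (0.21) turned positive. Those of Inhba (-0.44), Smad2 (-0.32), Acvr1b (-0.23), Tgfbi (-0.21) and Id3 (-0.09) shrank by over 1.5 times, and those of Ltbp3 (0.69), Smad5 (0.67), Smurf1 (0.59), Ski (0.56) and Bmpr1a (0.38, or 0.24 with upper-quartile factors) grew by as much.

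**Figure D1:**
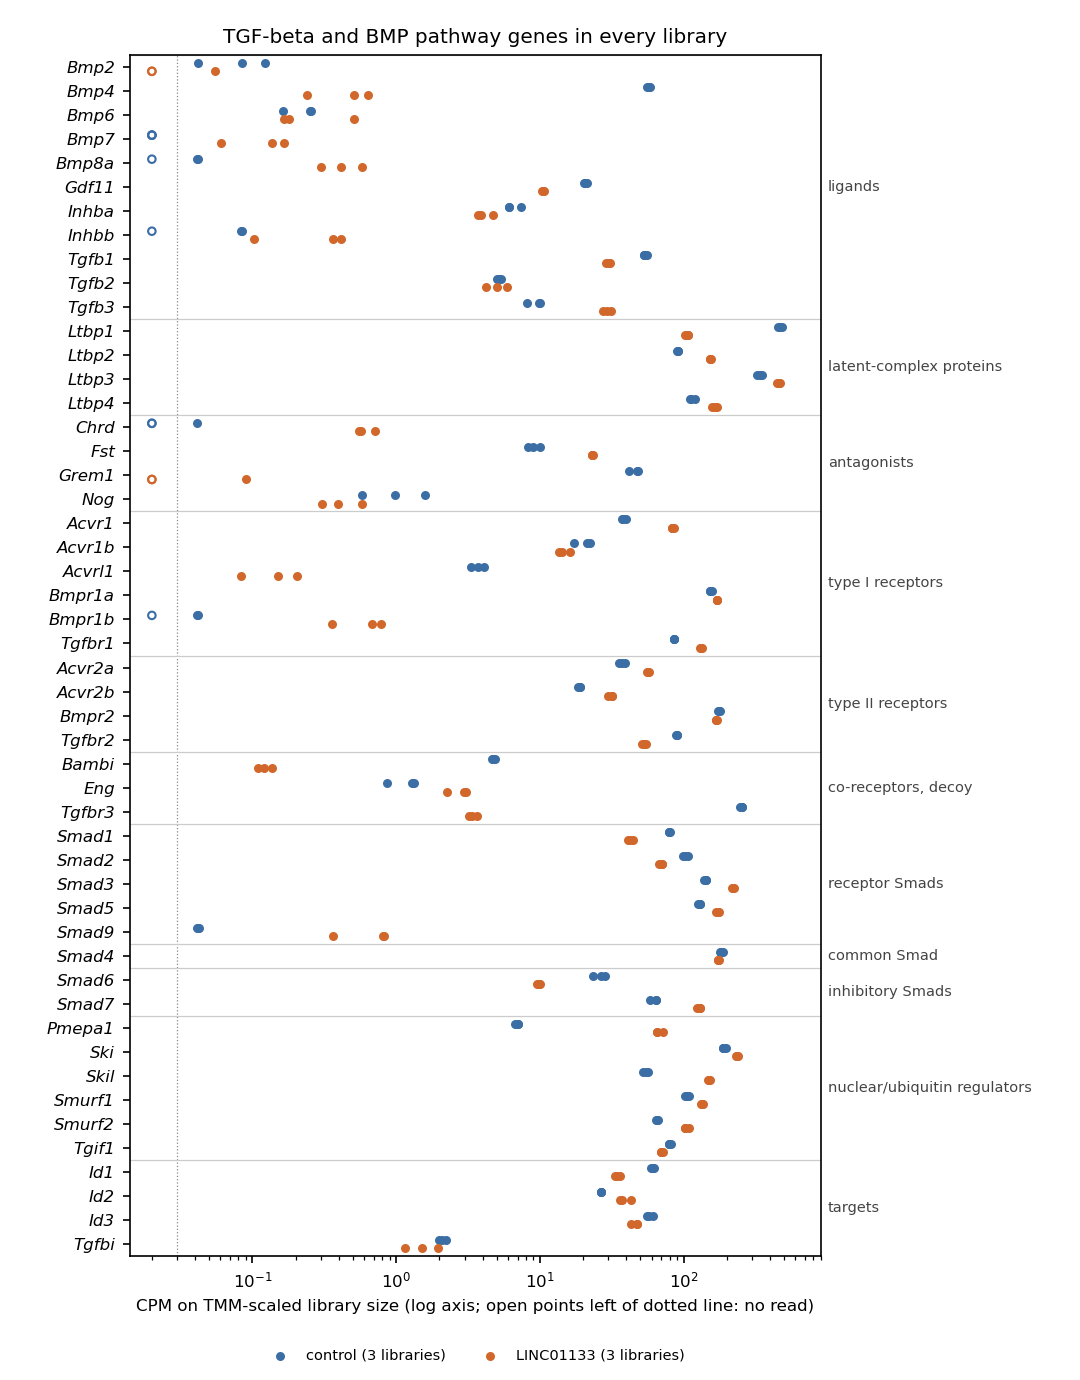
CPM on a log axis for the 50 genes with a row, grouped by role; each point is 1 library, control in blue and LINC01133 in orange, and open points left of the dotted line mark libraries with no read. Bmp4, Grem1, Tgfbr3, Bambi and Acvrl1 show the widest gaps to the left, and Pmepa1 the widest to the right among genes above 5 CPM.

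Start-site windows are shown for 3 genes of the BMP branch that fell at least 2-fold, a ligand, an antagonist and an inhibitory Smad, because they differ in the Smad-type letters they hold. Each window runs from 250 bases before to 50 after the RefSeq start, 5′ to 3′ on the gene's strand, build GRCm38.p6: Bmp4 at chr14:46390620-46390919, Grem1 at chr2:113758599-113758898 and Smad6 at chr9:64022010-64022309, all on the minus strand. Capitals mark matches on either strand to the Smad-type letters GTCTAGAC and CAGAC and to the GC-rich letters GGCGCC and GGAGCC, which do not contain one another.
Bmp4: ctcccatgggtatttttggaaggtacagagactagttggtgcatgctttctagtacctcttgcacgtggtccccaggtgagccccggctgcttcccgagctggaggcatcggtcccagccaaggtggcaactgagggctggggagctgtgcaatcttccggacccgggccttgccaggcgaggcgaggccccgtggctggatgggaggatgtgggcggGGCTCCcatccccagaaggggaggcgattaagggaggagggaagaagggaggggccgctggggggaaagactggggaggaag
Grem1: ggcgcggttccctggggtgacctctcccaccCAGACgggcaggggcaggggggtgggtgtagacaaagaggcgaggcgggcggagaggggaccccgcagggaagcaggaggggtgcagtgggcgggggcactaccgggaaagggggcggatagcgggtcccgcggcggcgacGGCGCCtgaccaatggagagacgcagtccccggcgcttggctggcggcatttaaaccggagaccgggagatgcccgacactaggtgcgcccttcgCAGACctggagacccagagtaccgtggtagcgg
Smad6: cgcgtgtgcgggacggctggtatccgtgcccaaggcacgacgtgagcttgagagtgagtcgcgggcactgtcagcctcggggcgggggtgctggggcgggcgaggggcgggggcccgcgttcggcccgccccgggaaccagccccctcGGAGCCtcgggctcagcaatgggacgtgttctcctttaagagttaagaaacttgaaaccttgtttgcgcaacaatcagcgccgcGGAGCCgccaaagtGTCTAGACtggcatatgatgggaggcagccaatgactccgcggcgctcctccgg
The Smad6 window held GTCTAGAC at bases 247 to 254, across the annotated start, and GGAGCC at bases 149 and 233. GTCTAGAC was in 0.213% of all 32851 windows in the table. The Grem1 window held CAGAC at bases 32 and 268 and GGCGCC at base 173, and the Bmp4 window held only GGAGCC, read on the other strand, at base 219. A RefSeq window was found for 38 of the 52 genes, of which 21 (55.3%) held CAGAC, 14 (36.8%) GGCGCC and 23 (60.5%) GGAGCC, where 53.2%, 13.4% and 33.5% of all 27025 genes with a window did. Those 27025 include genes not tested here, and the letters were not counted over tested genes alone. A gene with several windows also has more room to hold a match. Windows of the tested genes were also richer in G and C, with a median of 65% in 33 genes against 60.7% in 9930 tested genes. A ratio of observed to expected CpG of at least 0.6 was found in 15 of 18 that rose, in 12 of 14 that fell, and in 69.9% of tested genes. These matches describe letters and not binding.

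Among the ligands, 1 of 6 tested genes rose and 4 fell. Bmp4 (uc007thd.3, chromosome 14, 46383520 to 46390669 on mm10) stood at 57.0, 58.0 and 55.7 CPM in the controls and at 0.510, 0.634 and 0.242 CPM with LINC01133. The LINC01133 libraries were all under 1 CPM, far below every control (log2 fold change -6.92, SE 0.108, adjusted p = 1.5e-98). Bmp2, Bmp6, Bmp7 and Bmp8a had at most 42 counts over the 3 libraries of either group. Bmp8b, a BMP ligand outside the set, rose from 0.601 ± 0.237 to 1.72 ± 0.282 CPM (1.52). Gdf5 (-1.47) and Gdf7 (-1.33), ligand genes also outside the set and under 1 CPM in both group means, fell. Of 8 tested genes listed as other ligands, 5 were higher and 3 lower. Tgfb1, the main TGF-beta ligand gene of many tissues, stood at 52.7, 52.8 and 55.4 CPM in the controls and at 30.7, 30.5 and 29.0 CPM with LINC01133 (-0.84, SE 0.0477, adjusted p = 2.4e-35). Tgfb3 stood at 8.20, 9.91 and 9.94 CPM against 27.6, 31.4 and 29.3 CPM (1.66, SE 0.0727, adjusted p = 2e-46). Each LINC01133 library was thus below every control for Tgfb1 and above every control for Tgfb3. Tgfb2 overlapped between the groups, at 5.16 ± 0.168 and 5.04 ± 0.840 CPM (adjusted p = 0.83). Of the activin-type ligands, Gdf11 (-0.97) and Inhba, the activin A subunit (-0.69), fell, and Inhbb had 4 counts in the controls and 30 with LINC01133.

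Per length, in TPM (counts per base of gene length relative to their sum over the library), Tgfb1 made up 86.5% ± 0.817 of the 3 TGF-beta ligand transcripts in the controls and 58.7% ± 2.02 with LINC01133, and Tgfb3 made up 9.68% ± 0.837 and 36.9% ± 1.49 (SD, n = 3). In the controls Bmp4, at 89.1 ± 2.57 TPM, was at a level near that of Tgfb1 (79.5 ± 2.03) and of its antagonist Grem1 (89.7 ± 7.33). The Grem1 and Bmp4 levels did not differ beyond their spread. With LINC01133 the ligand order was Tgfb1 (53.5 ± 1.77), Tgfb3 (33.6 ± 1.74), Gdf11 (12.02 ± 0.274) and Inhba (10.2 ± 1.44), and Bmp4 stood at 0.867 ± 0.370 TPM.

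Of the 4 genes named for latent TGF-beta binding proteins, 3 rose and 1 fell. The shared name does not mean that each product holds TGF-beta. Ltbp1 (uc008dom.2, chromosome 17, 75005568 to 75392512) stood at 471.8, 480.5 and 456.7 CPM in the controls and 106.6, 106.8 and 101.9 CPM with LINC01133 (-2.16, SE 0.0253, adjusted p = 1.4e-113). The groups were far apart, and every LINC01133 library was below every control. Ltbp2 (0.76), Ltbp4 (0.52) and Ltbp3 (0.45) rose. The Ltbp1 share of the 4 transcripts per length went from 48.6% ± 1.5 to 12.9% ± 0.472, and that of Ltbp3 from 28.6% ± 0.959 to 46.4% ± 0.290.

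Secreted antagonists moved both ways, 2 higher and 2 lower of 4 tested. Grem1 (uc008lpp.2, chromosome 2, 113746164 to 113758646) stood at 41.6, 47.8 and 47.4 CPM in the controls. It had no read in 2 of the LINC01133 libraries and 0.0907 CPM in the third, so that the control level was 1500 times as high (95% interval 512.7 to 7276, covering counting error only). Fst (follistatin), which traps activin, stood at 8.90, 9.95 and 8.24 CPM against 23.0, 23.4 and 23.0 CPM (1.35, SE 0.076, adjusted p = 4.9e-36). The LINC01133 values lay close together and above every control. Both of the other BMP antagonists were scarce: Nog (noggin) fell from 1.05 ± 0.501 to 0.426 ± 0.140 CPM, its lowest control (0.583) being barely above its highest LINC01133 library (0.579). Chrd (chordin) had 1 count in the controls and 60 with LINC01133, or 43.6 times the level (95% interval 7.54 to 1752).

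Of 6 type I receptor genes, 4 rose and 2 fell. Acvr1, which encodes the BMP and activin receptor ALK2, stood at 37.5, 37.7 and 39.4 CPM in the controls and 85.1, 83.1 and 83.4 CPM with LINC01133 (1.13, SE 0.0407, adjusted p = 1.1e-55). Tgfbr1, the TGF-beta type I receptor, stood at 86.2, 86.3 and 86.0 CPM against 134.2, 131.6 and 130.3 CPM (0.62, SE 0.0312, adjusted p = 3.5e-40). In both genes every LINC01133 library lay above every control. Bmpr1a, a BMP type I receptor, rose from 154.2 ± 2.28 to 169.8 ± 0.359 CPM (0.14), and Acvr1b, the activin receptor ALK4, fell from 20.3 ± 2.68 to 14.7 ± 1.30 CPM (-0.47). Acvrl1 (ALK1), best known from endothelium, fell from 3.71 ± 0.376 to 0.146 ± 0.0607 CPM (-4.67), and Bmpr1b had 2 counts and 59, or 21.5 times the level (95% interval 5.68 to 181.3).

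Of 4 type II receptor genes 2 rose and 2 fell. Tgfbr2, the type II receptor for TGF-beta itself, stood at 89.9, 88.4 and 89.3 CPM in the controls and 53.1, 54.6 and 51.3 CPM with LINC01133 (-0.75, SE 0.0371, adjusted p = 3.6e-41). It fell where its partner Tgfbr1 rose. The activin type II receptors Acvr2a (0.60) and Acvr2b (0.72) rose. Bmpr2, the BMP type II receptor, moved from 176.8 ± 3.00 to 169.4 ± 1.19 CPM (-0.06, adjusted p = 0.026), a call that turned with the scaling and was lost without control replicate 3 (adjusted p = 0.073), LINC01133 replicate 2 (0.065) or LINC01133 replicate 3 (0.064). Per length, Tgfbr2 was the largest type II receptor in the controls, at 40.1% ± 0.136 of the 4 transcripts, followed by Bmpr2 at 34.8% ± 0.740. With LINC01133 the order became Bmpr2 (34.8% ± 0.0422), Acvr2a (31.0% ± 0.531) and Tgfbr2 (24.8% ± 0.827). Among type I receptors, Bmpr1a held 45.8% ± 0.558 and then 37.0% ± 0.456, and Acvr1 19.2% ± 0.787 and then 30.8% ± 0.0760.

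All 3 co-receptor and decoy genes were called at least 2-fold, 2 lower and 1 higher. Tgfbr3 (uc008ylz.2, chromosome 5, 107106570 to 107289629), whose product betaglycan presents TGF-beta to its receptors, stood at 254.1, 248.1 and 256.2 CPM in the controls and 3.64, 3.23 and 3.38 CPM with LINC01133 (-6.21, SE 0.0487, adjusted p = 1.9e-135). The lowest control was far above the highest LINC01133 library. Bambi, a pseudoreceptor without a kinase domain, fell from 4.73 ± 0.0925 to 0.122 ± 0.0128 CPM (-5.23), and Eng (endoglin), a co-receptor of endothelium, rose from 1.16 ± 0.258 to 2.76 ± 0.434 CPM (1.24).

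**Figure D2:**
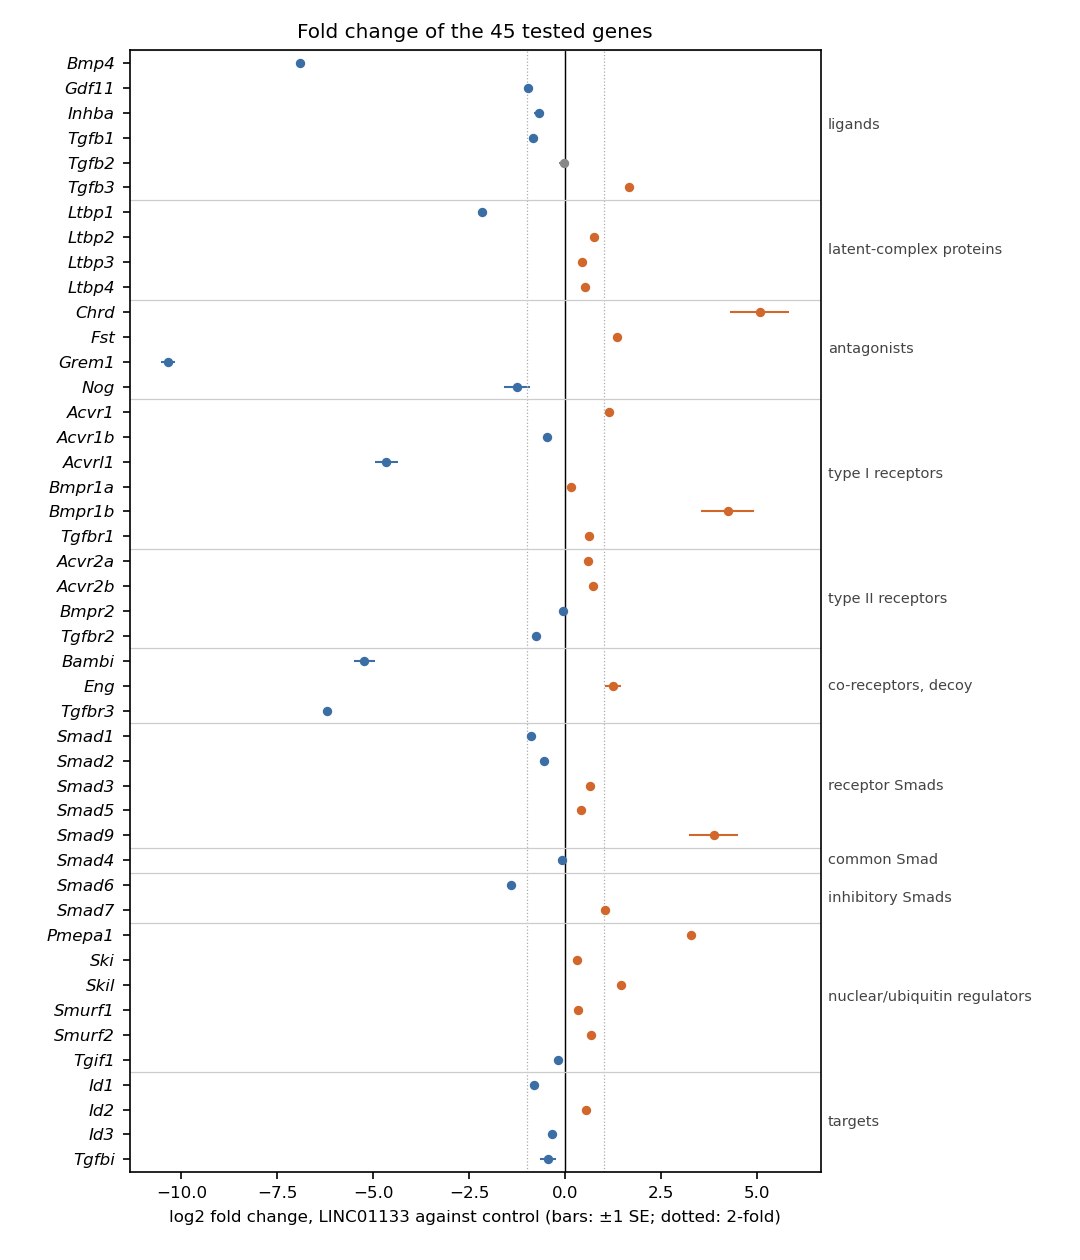
Log2 fold change of LINC01133 against control for the 45 tested genes, by role, with bars of 1 SE from edgeR; orange is called higher, blue called lower and grey not called, and dotted lines mark 2-fold. The values run from -10.36 for Grem1 to 5.06 for Chrd, most of them within 1 unit of 0.

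Within each pair of receptor Smads, 1 rose and 1 fell. Smad2 stood at 102.6, 107.6 and 98.9 CPM in the controls and 67.6, 70.2 and 71.1 CPM with LINC01133 (-0.56, SE 0.0345, adjusted p = 1.2e-32). Smad3 stood at 144.0, 142.2 and 139.7 CPM against 216.5, 225.0 and 220.0 CPM (0.64, SE 0.0266, adjusted p = 1.7e-48). The groups of both genes lay apart, in opposite directions. Among the BMP Smads, Smad1 fell from 79.5 ± 0.688 to 42.5 ± 1.58 CPM (-0.90) and Smad5 rose from 129.2 ± 2.17 to 173.2 ± 4.17 CPM (0.42). The Smad2 share of Smad2 and Smad3 per length was 29.2% ± 0.767 in the controls and 15.2% ± 0.262 with LINC01133, and the Smad1 share of Smad1 and Smad5 was 47.1% ± 0.264 and 26.2% ± 1.07. Smad9, the remaining BMP Smad, had 3 counts in the controls and 66 with LINC01133, or 16 times the level (95% interval 5.24 to 79.6). Smad4, the partner of all receptor Smads, stood at 187.0, 180.3 and 181.7 CPM against 172.7, 175.0 and 174.0 CPM (-0.07, SE 0.0264, adjusted p = 0.0073). That difference is small beside the others and changed sign by library size alone.

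The inhibitory Smads went in opposite directions. Smad6, which acts mainly on BMP receptors, stood at 28.3, 23.4 and 26.6 CPM in the controls and 9.85, 9.63 and 10.0 CPM with LINC01133 (-1.41, SE 0.0726, adjusted p = 1.8e-39). Smad7, which acts on TGF-beta and BMP receptors and is a direct TGF-beta target, stood at 58.8, 64.3 and 64.2 CPM against 123.6, 130.3 and 130.4 CPM (1.04, SE 0.0343, adjusted p = 1.1e-59). Neither gene overlapped between the groups. Smad6 went from 38.4% ± 3.32 to 10.3% ± 0.349 of their joint transcripts per length.

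**Figure D3:**
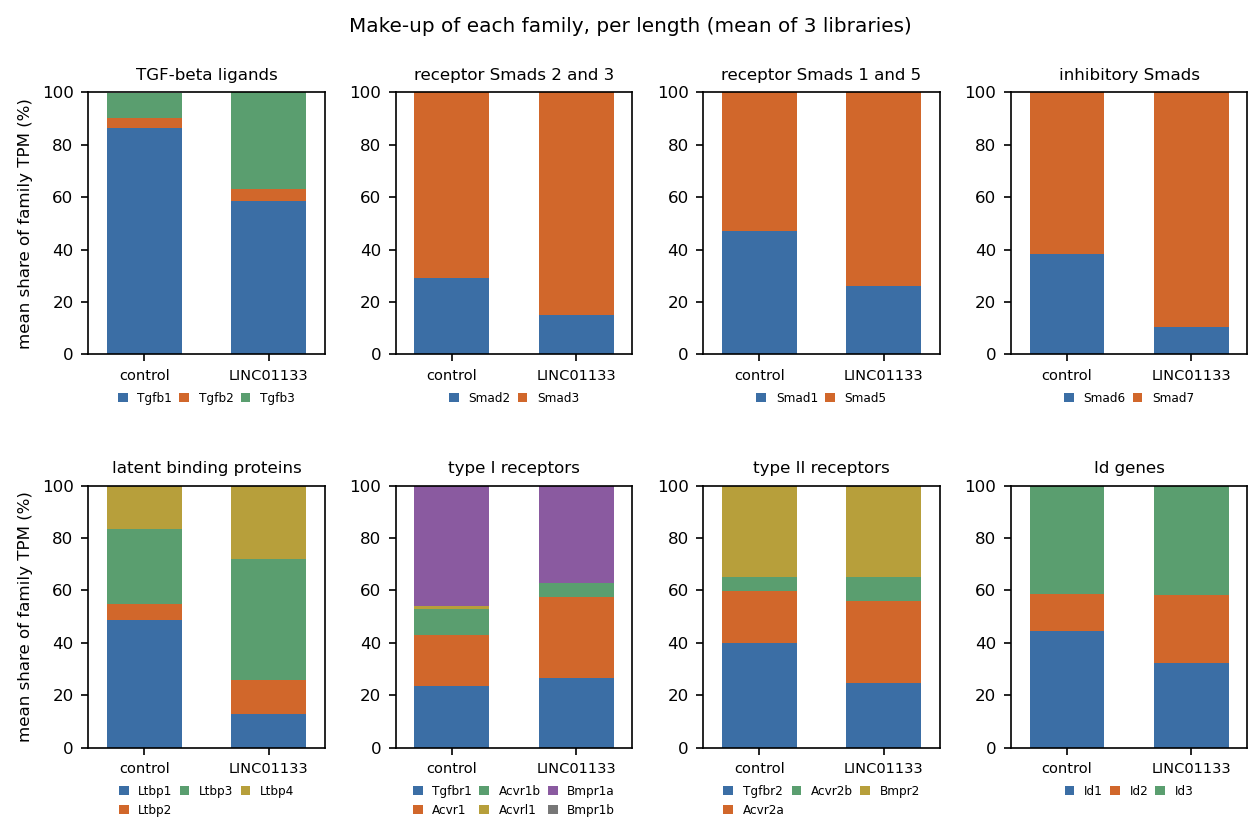
Share of each family's TPM held by each gene, in percent, as the mean of 3 libraries for control and LINC01133; each bar sums to 100. Tgfb3, Smad3, Smad5, Smad7, Ltbp3 and Acvr1 hold a larger share with LINC01133, and Tgfb1, Smad2, Smad1, Smad6, Ltbp1 and Tgfbr2 a smaller one.

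Among regulators in the nucleus and of ubiquitination, 5 of 6 rose and 1 fell. Pmepa1 (uc008odq.1, chromosome 2, 173224458 to 173276533) stood at 7.01, 7.04 and 6.70 CPM in the controls and 71.7, 65.0 and 65.3 CPM with LINC01133 (3.28, SE 0.0633, adjusted p = 4.2e-87). Skil, which encodes the Smad corepressor SnoN and is itself induced by TGF-beta, stood at 56.4, 52.3 and 54.4 CPM against 151.8, 147.3 and 150.7 CPM (1.46, SE 0.0336, adjusted p = 6.6e-78). In both genes the LINC01133 libraries were all above the controls. The ubiquitin ligase genes Smurf2 (0.67) and Smurf1 (0.34) and the corepressor gene Ski (0.31) rose by less. The corepressor gene Tgif1 fell from 80.1 ± 1.38 to 70.7 ± 1.51 CPM (-0.18), with the opposite sign by library size alone.

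The Id genes, inhibitors of basic helix-loop-helix factors and direct BMP targets, did not move together. Id1 stood at 62.4, 59.7 and 61.3 CPM in the controls and 33.4, 36.3 and 34.5 CPM with LINC01133 (-0.81, SE 0.0451, adjusted p = 1.9e-36). Every LINC01133 library was below every control. Id3 fell from 58.0 ± 3.14 to 45.9 ± 2.67 CPM (-0.34), a call lost by library size alone (adjusted p = 0.059), and Id2 rose from 26.7 ± 0.0479 to 38.7 ± 3.57 CPM (0.53). Tgfbi, a matrix protein gene named for its induction by TGF-beta, was low and close to the threshold, from 2.10 ± 0.108 to 1.55 ± 0.412 CPM (-0.45, adjusted p = 0.038). Its call was lost under 8 of 14 other settings (adjusted p up to 0.34, among them without control 1, control 3, LINC01133 replicate 2 or LINC01133 replicate 3, at 0.092, 0.057, 0.069 and 0.23), and without LINC01133 replicate 3 its log2 fold change was -0.28.

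Genes at the lowest levels need the background of this table beside them. All 3 tested genes under 1 CPM in both group means (Chrd, Smad9 and Bmpr1b) were called higher with LINC01133. With 1, 3 and 2 counts in the controls, they passed the filter on low counts only through the LINC01133 libraries. Their direction was thus fixed by the filter, and they are included in the counts of genes that rose given above. Of all 1439 tested genes that low, 57.2% were called higher and 13.2% lower. The part that depth and the larger number of detected rows have in these calls was not tested.

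From a list of 106 other genes of the pathway, 72 could be tested, of which 36 were higher and 26 lower with LINC01133, 20 and 17 of them at least 2-fold. Over all tested genes 44.5% were higher and 40.5% lower, and 20.3% and 13.9% were so by at least 2-fold. The counts called in the lists below are to be read beside these shares. The median log2 fold change was 0.09 and the mean -0.08, of opposite sign. Among 22 other ligands 8 were tested, 5 higher and 3 lower, and Bmp1, a protease that cleaves chordin and procollagens and is no BMP-type ligand, was the only one above 5 CPM, rising from 45.2 ± 1.70 to 181.5 ± 7.10 CPM (2.01, edgeR adjusted p = 1.8e-93). Genes that release active TGF-beta were higher in 3 and lower in 2 of 5 tested. Furin, the convertase that cuts the TGF-beta precursor, rose (1.49), as did the membrane protease gene Mmp14 (1.09), and Thbs1 (thrombospondin 1), an activator of the latent complex, fell (-0.58, or -0.34 by library size alone).

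Other secreted antagonists were higher in 4 and lower in 2 of 7 tested (median log2 fold change 0.24, mean -0.75). Bmper, a BMP-binding protein, fell from 96.6 ± 3.69 to 0.136 ± 0.0915 CPM (-9.47), and Fstl1, a secreted follistatin-like protein, from 107.5 ± 1.74 to 1.32 ± 0.407 CPM (-6.35), while the protease gene Htra1 rose from 188.8 ± 4.65 to 403.7 ± 10.2 CPM (1.10). Of other receptors and co-receptors, 4 rose and 1 fell of 5 tested. The receptor genes Acvr1c and Amhr2 rose most. Acvr1c went from 0 counts to 381, or 3.85 CPM, at least 92.4-fold higher when the control group is set at its floor of 3 counts. Amhr2 had 1 count in the controls and 103 with LINC01133, or 74.9 times the level (interval 13.15 to 2987, covering counting error only). Both passed the filter on low counts only through the LINC01133 libraries. Cd109, a TGF-beta co-receptor, fell (-1.49), and the BMP co-receptor genes Rgma (0.25) and Rgmb (0.13) rose slightly (0.50 and 0.38 by library size alone), the Rgmb call being lost without control replicate 3 (adjusted p = 0.06). Among Smad regulators and cofactors, 9 rose and 7 fell of 20 tested (median 0.03, mean -0.19). Tgif2, a corepressor gene related to Tgif1, rose from 7.06 ± 0.924 to 26.5 ± 0.931 CPM (1.91), the transcription factor gene Runx3 fell from 5.94 ± 0.479 to 0.842 ± 0.126 CPM (-2.80), and Usp9x, which encodes a deubiquitinase of Smad4, fell (-1.40).

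Response genes did not go one way. Of TGF-beta response genes, 9 were higher and 9 lower of 21 tested, with 6 and 6 at least 2-fold (median 0.02, mean -0.47). Junb stood at 276.4 ± 6.37 and 281 ± 9.11 CPM and was not called (0.02, adjusted p = 0.34), but was called higher by library size alone (0.27), with upper-quartile factors (0.12) and with a filter of 1 CPM (0.055). Of the transcription factors of mesenchymal change, only Snai1 rose among those listed. It went from 0 counts to 12.8 ± 0.973 CPM, at least 304.5-fold higher when the control group is set at its floor of 3 counts. Zeb1 fell from 50.4 ± 2.38 to 0.265 ± 0.116 CPM (-7.56), Snai2 from 2730 counts to 38 (-6.61) and Zeb2 from 166.7 ± 5.30 to 104.5 ± 2.24 CPM (-0.67). Cdh2 (N-cadherin) fell from 7505 counts to 2. Other TGF-beta response genes at 5 CPM or more in either group mean also changed at least 2-fold. Of these, Klf10 (2.60), Gadd45b (1.96) and Ctgf (1.66) rose and Cdkn1a (-1.51) fell. Of BMP response genes, 2 were higher and 3 lower of 7 tested (median -0.48). The homeobox gene Dlx3 fell from 11.5 ± 1.32 to 0.356 ± 0.116 CPM (-4.96) and Runx2, an osteoblast factor that is also in the list of cofactors, fell (-1.01), while Gata3, a luminal factor that the list counts as a BMP target, rose (0.84).

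**Figure D4:**
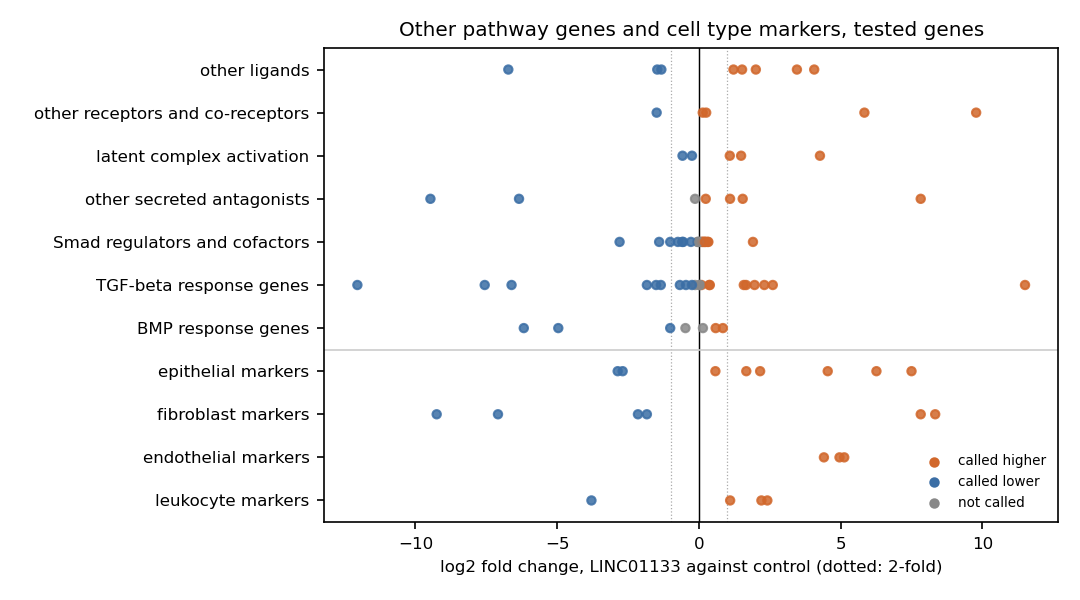
Log2 fold change of LINC01133 against control for each tested gene of 7 lists of other pathway genes and, under the line, 4 lists of cell type markers; orange is called higher, blue lower and grey not called, and dotted lines mark 2-fold. Points lie on both sides of 0 in every list but the endothelial markers; for genes without a read in the controls, such as Snai1 and Epcam, the fitted value depends on the prior count.

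Markers of other cell types moved between the groups too. Of 9 fibroblast markers 6 were tested, 4 lower and 2 higher, and their summed level was 270 to 274 CPM in the controls and 20.9 to 21.4 CPM with LINC01133. Pdgfrb (-7.09), Pdgfra (-2.15) and Pdpn (-9.25) fell, Dcn went from 1 to 409 counts, Lum had 0 counts in both groups and Col3a1 had 0 and 1. Endothelial markers rose in 3 of 3 tested of 8, from a sum of 0.333 to 1.15 CPM to one of 16.3 to 17.7 CPM, with Egfl7 at 9.65 ± 0.151 and Pecam1 at 5.48 ± 0.416 CPM, while the defining gene Cdh5 had 0 counts and 1, and Kdr 3 and 20. Leukocyte markers rose in 3 and fell in 1 of 4 tested of 8 (sum 5.42 to 6.62 and 18.2 to 19.1 CPM), with Cd68 at 2.20 and Itgam at 2.41 on the log2 scale and Ptprc, which marks leukocytes as a whole, at 5 counts and 18. Of 5 adipocyte markers 1 was tested, and it was called higher (sum 0 to 0.128 and 0.965 to 1.18 CPM). Epithelial markers rose in 6 and fell in 2 of 8 tested, with Krt18 at 6.26 and Krt19 at 2.16 on that scale. The 2 that fell were the keratin genes Krt14, from 108 counts to 20 (-2.87), and Krt5, from 105 to 22 (-2.69). The part that a different mix of cells has in the values of Tgfbr3, Acvrl1, Eng and Grem1 was not tested.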

How the data were processed

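RNA was measured in 6 libraries, 3 per group as titled in the labels, from 100 ng of total RNA with an Illumina TruSeq kit, per the labels' protocols. The authors deposited raw whole-number counts per gene, with a gene length and a UCSC identifier beside each symbol, per the file headers. The submitters' processing notes list mm10 and bcl2fastq. Aligner, counter and use of strand: not given in the sources used here, so that reads of overlapping genes cannot be told apart. No gene of the set with a row shared 10% or more of its exonic bases with another gene (GENCODE M21). The length column of the deposited table is in bases, another quantity than the counts, and was used only for TPM.

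Groups were compared in R 4.3.3 by the quasi-likelihood test of edgeR 4.0.16, with TMM scaling, filterByExpr and robust dispersions, over all 14116 genes that passed; p-values were adjusted by Benjamini-Hochberg and called under 0.05. Values are CPM on TMM-scaled sizes, mean ± SD over 3 libraries; TPM includes every row. A group with no read was set at 3 counts over the group; 1 to 3 counts give a ratio with its exact 95% interval; both cover counting error alone. Whether replicates were separate cultures is not in the labels, and p-values then reflect the spread of these samples only, which may be technical. Replicates of a group differed by more than sampling noise (chi-square 1.61 to 2.32 per degree of freedom). On counts simulated for this comparison, 98% of 50 genes changed 1.25-fold were recovered, with 13 false calls among the 13728 genes of the run. The run changed 50 genes at each of 1.25, 1.5, 2 and 4-fold, whereas 84.9% of tested genes were called in the measured counts. It therefore does not show how many calls are wrong when most genes differ or when the choice of scaling moves the values. Alternatives were other scalings and filters, the replicate number as a block, leaving out each sample, DESeq2 1.42.0 and limma voom 3.58.1. Genes and lists were chosen with earlier results of these data known. A value in every sample is given for genes of the set called at least 2-fold with at least 5 CPM in either group mean and for Tgfb1, Tgfbr1, Tgfbr2, Bmp4, Smad2, Smad3, Smad4, Smad7 and Id1; of each other list up to 3 called genes of the largest change with at least 5 CPM are named, with Junb, Cdh1 and Epcam whatever their values; 1 further gene named by this rule is not reported here. Cdh5, Kdr, Ptprc, Lum, Col3a1, Dcn, Bmp8b, Gdf5, Gdf7, Snai2, Zeb2, Klf10, Gadd45b, Ctgf, Cdkn1a, Krt14, Krt5, Acvr1c and Amhr2 were named outside this rule, after their values were seen. Figures were drawn with matplotlib 3.10.9.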

Additional observations from a re-analysis of the deposited data

How the results depend on the processing

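Of the 45 tested genes, 39 kept their direction and their side of the threshold under each of the 14 alternatives that tested them (the filter of 1 CPM in 3 libraries left out 4, Bmpr1b, Chrd, Nog and Smad9); the others were Tgfb2, Tgfbi, Bmpr2, Smad4, Id3 and Tgif1. Genes of the set called higher numbered 20 to 26 and called lower 16 to 21 over all settings, and those at least 2-fold 7 to 13 and 7 to 9, each within 1.5 times the main count. Values that changed sign were Tgfb2, not called, by library size alone (0.21), upper-quartile factors (0.069), a filter of 1 CPM in 3 libraries (0.0024) and without LINC01133 replicate 1 (0.079, against -0.15 without LINC01133 replicate 3); Bmpr2 (0.18 by library size alone, adjusted p = 7.2e-08, and 0.036 by upper quartile, not called); Smad4 (0.17, adjusted p = 3.1e-07, and 0.024, not called); Tgif1 (0.062 by library size alone, not called); and Junb, not called, without control replicate 3 (-1e-04) and without LINC01133 replicate 2 (-0.0026), against 0.041 without LINC01133 replicate 3, and called by library size alone (0.27), upper quartile (0.12) and the CPM filter (0.055). Bmpr2 was also not called with RLE factors or DESeq2 (-0.05 in both), the CPM filter (-0.03), or without control replicate 3 (-0.06), LINC01133 replicate 2 (-0.06) or LINC01133 replicate 3 (-0.06), and Smad4 not with the CPM filter (-0.04); why was not tested. Same-numbered samples did not deviate together (correlations -0.019, -0.031 and -0.002). With the replicate number as a block, 23 genes of the set were higher and 20 lower, Tgfbi (adjusted p = 0.052) being the difference. Bmp2, Bmp6, Bmp7, Bmp8a and Inhbb, left out by the main filter, have at most 42 counts in a group. With no filter Bmp7 (adjusted p = 0.0092), Bmp8a (9.2e-06) and Inhbb (0.005) were called higher, and Bmp2 (0.21) and Bmp6 (0.65) were not called.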
